A study of Mus musculus with 2 samples.

Results

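The genes described here are 39 genes of mitosis and the spindle: mitotic cyclins and kinases, genes of the spindle checkpoint, the kinetochore, the spindle motors and the mitotic chromosomes. They were taken by name, as probe sets whose only gene symbol in the array's annotation was one of the 39. Of these, 35 were on the array through 47 probe sets, out of 8251 genes named in this way, and Ccnb1, Cdc25b, Bub1b and Cenpf had no such probe set. They were measured in mouse bone marrow cells sorted for the phenotype Lin-c-kit+Sca1+, a fraction without the antigens of mature blood lineages that carries the receptor Kit and the antigen Sca-1 and is enriched for stem and multipotent progenitor cells. The data were 2 arrays, sample 1 and sample 2, which form 1 group without treatment, time point or control. Strain, age, genotype and pooling of animals are not given in the sources used here, and nothing says that the samples came from separate animals or sorts, so their spread may be technical.

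A cell enters mitosis when Cdk1, bound to cyclin A or cyclin B, becomes active through the Cdc25 phosphatases. Chromosomes condense, kinetochores attach to the microtubules of the spindle, and the spindle checkpoint holds back Cdc20, the activator of the anaphase-promoting complex, until every kinetochore is attached. Cdc20 then directs securin and cyclin B to destruction, sister chromatids separate, and the central spindle guides cell division. Most of these genes are transcribed in the late phases of the cell cycle, through the repressor complex DREAM and the activators B-Myb and FoxM1, which act at a promoter element called the CHR, while the factor NF-Y binds CCAAT boxes. In bone marrow most long-term stem cells are quiescent and the progenitors derived from them divide often.

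The promoters of these genes were examined for both elements, which the choice of members did not use. A promoter window held the 250 bases before and the 50 bases after a gene's annotated start, from RefSeq on the GRCm38.p6 build. Such windows were matched for 28 of the 35 members, 30 windows in all because Bub3 and Prc1 each had 2 overlapping ones; Ccna2, Cdc25c, Aurkb, Incenp, Kif20a, Stmn1 and Smc4 were not matched. The CHR was searched as TTTGAA and TTCGAA and the CCAAT box as CCAAT, on both strands, and a CHR match and a CCAAT box can overlap by 1 base at most. A CHR match was present in 22 of 30 member windows (73.3%), against 1208 of 8378 windows (14.4%) of the other genes named on the array and 6316 of all 32851 windows (19.2%). A CCAAT box was present in 25 of 30 (83.3%), against 36.8% of the other array genes and 37.4% of all windows. Both occurred together in 21 of 30 (70.0%), against 5.79% and 7.52%. The spaced arrangement of GCGG, then 4 bases of any kind, then TTTGAA was found in the windows of Cdk1 and Cks1b (6.67% of member windows, against 0.0716% of those of other array genes). These are shares of letters in windows, without a test, and a match is not a demonstration of a bound site.

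By gene, 20 of the 28 members had a CHR match, 23 had a CCAAT box and 19 had both. Birc5, Mad2l1, Pttg1 and Tacc3 had neither in this window. For 18 members a CHR match began within 50 bases of the start, and for 18 a CCAAT box did. Top2a had the most matches of the members, with 4 for the CHR and 6 for the CCAAT box.

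**Figure D1:**
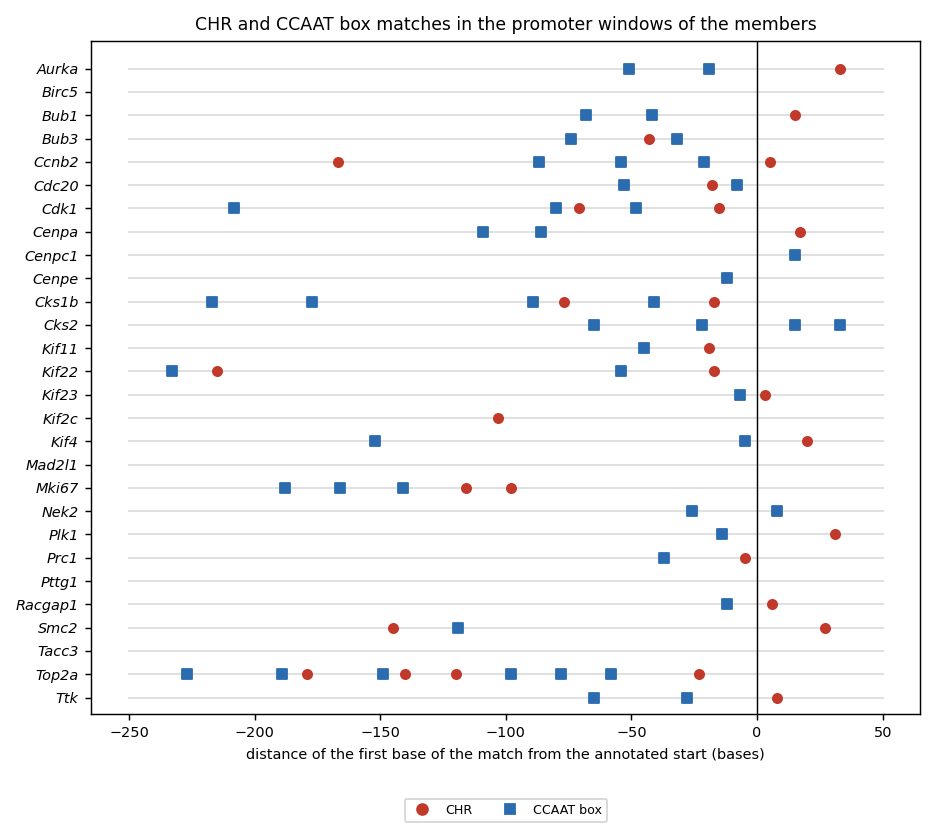
Positions of CHR matches (circles) and CCAAT boxes (squares) in the promoter windows of 28 members, 1 window per gene, as distance of the first base of the match from the annotated start in bases (vertical line). CHR matches of 18 members lie within 50 bases of the start, and Birc5, Mad2l1, Pttg1 and Tacc3 show no match.

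Windows are shown for the 3 members most different in each direction between the samples, among those with a single window and both signals above the floor described below, because they let the promoters of genes that went opposite ways be read side by side. Capitals mark CHR matches (TTTGAA or its reverse complement TTCAAA, and TTCGAA) and CCAAT boxes (CCAAT or its reverse complement ATTGG), each sequence runs 5′ to 3′ along its gene, and the annotated start is base 251. Higher in sample 1 were Pttg1 (chr11:43425932-43426231, minus strand), Cdc20 (chr4:118437294-118437593, minus strand) and Top2a (chr11:99024140-99024439, minus strand). Higher in sample 2 were Cks2 (chr13:51644982-51645281, plus strand), Kif23 (chr9:61946750-61947049, minus strand) and Kif22 (chr7:127042371-127042670, minus strand), all on GRCm38.p6.
Pttg1: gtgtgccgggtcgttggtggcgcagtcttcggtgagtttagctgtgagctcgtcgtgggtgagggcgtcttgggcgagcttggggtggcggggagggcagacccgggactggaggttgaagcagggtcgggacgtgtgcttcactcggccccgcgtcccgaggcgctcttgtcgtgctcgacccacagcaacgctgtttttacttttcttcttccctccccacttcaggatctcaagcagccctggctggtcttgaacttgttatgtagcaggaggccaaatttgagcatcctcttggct
Cdc20: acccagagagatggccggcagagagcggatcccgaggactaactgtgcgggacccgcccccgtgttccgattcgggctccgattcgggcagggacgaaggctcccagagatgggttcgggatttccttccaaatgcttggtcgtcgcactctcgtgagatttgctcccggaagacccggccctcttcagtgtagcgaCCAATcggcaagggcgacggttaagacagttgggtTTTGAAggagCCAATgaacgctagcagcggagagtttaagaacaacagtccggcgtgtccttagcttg
Top2a: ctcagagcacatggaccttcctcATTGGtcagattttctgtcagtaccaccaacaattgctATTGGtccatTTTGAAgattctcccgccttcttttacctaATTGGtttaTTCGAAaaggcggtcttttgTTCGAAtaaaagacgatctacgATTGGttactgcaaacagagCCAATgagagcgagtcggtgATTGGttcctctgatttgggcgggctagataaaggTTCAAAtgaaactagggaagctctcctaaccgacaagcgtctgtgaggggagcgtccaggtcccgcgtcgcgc
Cks2: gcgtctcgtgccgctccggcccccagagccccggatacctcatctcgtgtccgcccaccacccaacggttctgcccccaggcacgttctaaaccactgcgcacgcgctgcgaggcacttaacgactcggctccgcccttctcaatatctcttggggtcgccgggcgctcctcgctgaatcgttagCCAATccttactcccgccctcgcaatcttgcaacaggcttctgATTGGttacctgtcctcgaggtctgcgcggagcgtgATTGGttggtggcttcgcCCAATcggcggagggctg
Kif23: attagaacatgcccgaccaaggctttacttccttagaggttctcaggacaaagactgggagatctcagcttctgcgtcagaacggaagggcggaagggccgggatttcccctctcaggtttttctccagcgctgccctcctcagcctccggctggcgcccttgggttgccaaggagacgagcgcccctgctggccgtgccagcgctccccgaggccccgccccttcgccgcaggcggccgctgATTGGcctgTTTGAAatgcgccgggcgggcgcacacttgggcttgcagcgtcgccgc
Kif22: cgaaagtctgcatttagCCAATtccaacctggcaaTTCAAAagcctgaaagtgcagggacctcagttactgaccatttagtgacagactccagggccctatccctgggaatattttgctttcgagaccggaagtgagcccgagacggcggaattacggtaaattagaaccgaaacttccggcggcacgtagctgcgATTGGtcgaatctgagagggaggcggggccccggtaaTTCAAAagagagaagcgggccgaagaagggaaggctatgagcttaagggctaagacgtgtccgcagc
The CHR was present in Cdc20 (1 match), Top2a (4), Kif23 (1) and Kif22 (2), which lie on both sides, and CCAAT boxes in Cdc20 (2), Top2a (6), Cks2 (4), Kif23 (1) and Kif22 (2). Over the members above the control level with a window, the 19 with a CHR match had 10 genes higher in sample 1 and 9 higher in sample 2, with a median log2 difference (sample 2 minus sample 1) of -0.07. The 6 without one had 5 and 1, with a median of -0.87. The 20 with a CCAAT box had 10 and 10, with a median of -0.0087, and the 5 without one had 5 and 0, with a median of -0.83. Birc5, Mad2l1, Pttg1 and Tacc3 have neither element and so are in both sets without a match. Of the 32 members above the control level, 19 were higher in sample 1 and 13 in sample 2. Of all named genes above that level, 47.1% were higher in sample 1 and 43.3% in sample 2. The counts by element are of few genes and carry no test.

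Nearly all members on the array gave a signal above background. The background, called the control level, was the 90th percentile of 15 bacterial control probe sets (genes Dap, Lys, Phe, Thr and Trpn, which no mouse RNA matches), 12.1 in sample 1 and 8.91 in sample 2 on the quantile-normalized signal scale, in which both arrays share 1 distribution. In both samples 32 of 35 members (91.4%) were above it, against 57.0% of all 8251 named genes. In sample 1 alone the count was 33, against 64.3% of named genes, and in sample 2 alone 34, against 71.0%. The 32 had signals from 17.2 to 380 in sample 1 (median 62.6) and from 10.8 to 592 in sample 2 (median 50.3). The control level is permissive, and with a signal of at least 20 required in both samples the count was 27 of 35, against 40.7% of named genes. The 3 members that were not above it in both were Bub1, Cenpc1 and Cenpe. In bulk RNA of this kind fewer dividing cells and less RNA per dividing cell cannot be told apart.

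**Figure D2:**
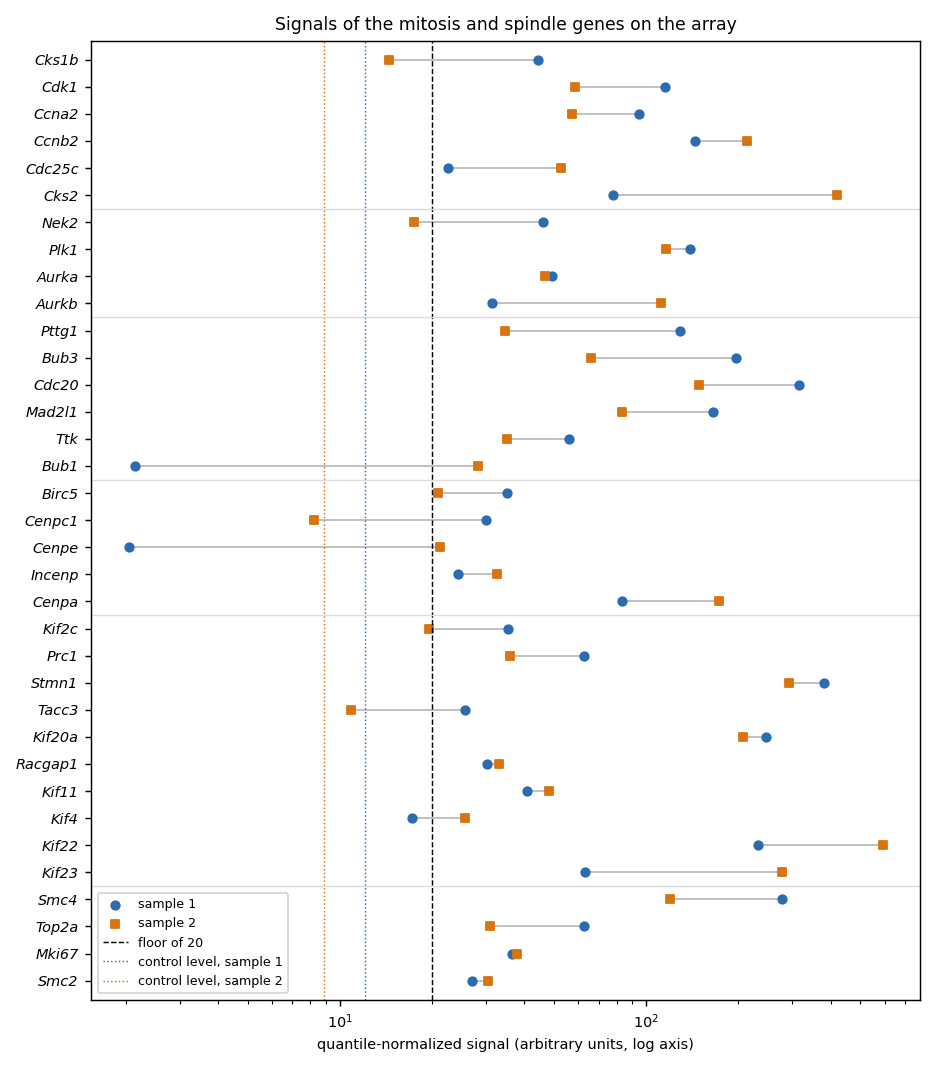
Quantile-normalized signal (log axis, arbitrary units) of the 35 members on the array in sample 1 (circles) and sample 2 (squares), grouped by role from top to bottom (cyclins and Cdk1 regulators, kinases, checkpoint and anaphase regulators, centromere, motors and microtubule regulators, chromosomes); dotted lines are the control levels and the dashed line the floor of 20. Of the 35, 32 have both points above their control levels, and Bub1 and Cenpe have sample 1 points near 2.

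The members did not move one way between the samples. Signals under 20 were set to 20 before log2, so where 1 sample lies under this floor the fold is a lower bound, as for 5 of the 32. Of the 32, 19 were higher in sample 1 and 13 in sample 2, that is 59.4% and 40.6%, against 47.1% and 43.3% of the 4707 named genes above the control level, the rest of which were at the floor in both. A difference of 2-fold or more was found in 13 members. Of these, 7 were higher in sample 1 (21.9%, against 11.0% of all such genes) and 6 in sample 2 (18.8%, against 9.62%). The counts were 9 and 5 with the deposited scaling, and 3 and 4 with an offset of 32 in place of the floor. The median log2 difference of the members was -0.31 (1.24-fold higher in sample 1), that of all genes above the control level 0, and the quartiles of the members were -0.98 and 0.37. Among genes with both signals at 20 or more, 11 of 27 members (40.7%) were 2-fold or more apart, against 764 of 3355 genes (22.8%). The SD between the samples on the log2 scale was 0.78 over those 27 members and 0.62 over those 3355 genes. With 1 group of 2 samples no difference has a test or a p-value.

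**Figure D3:**
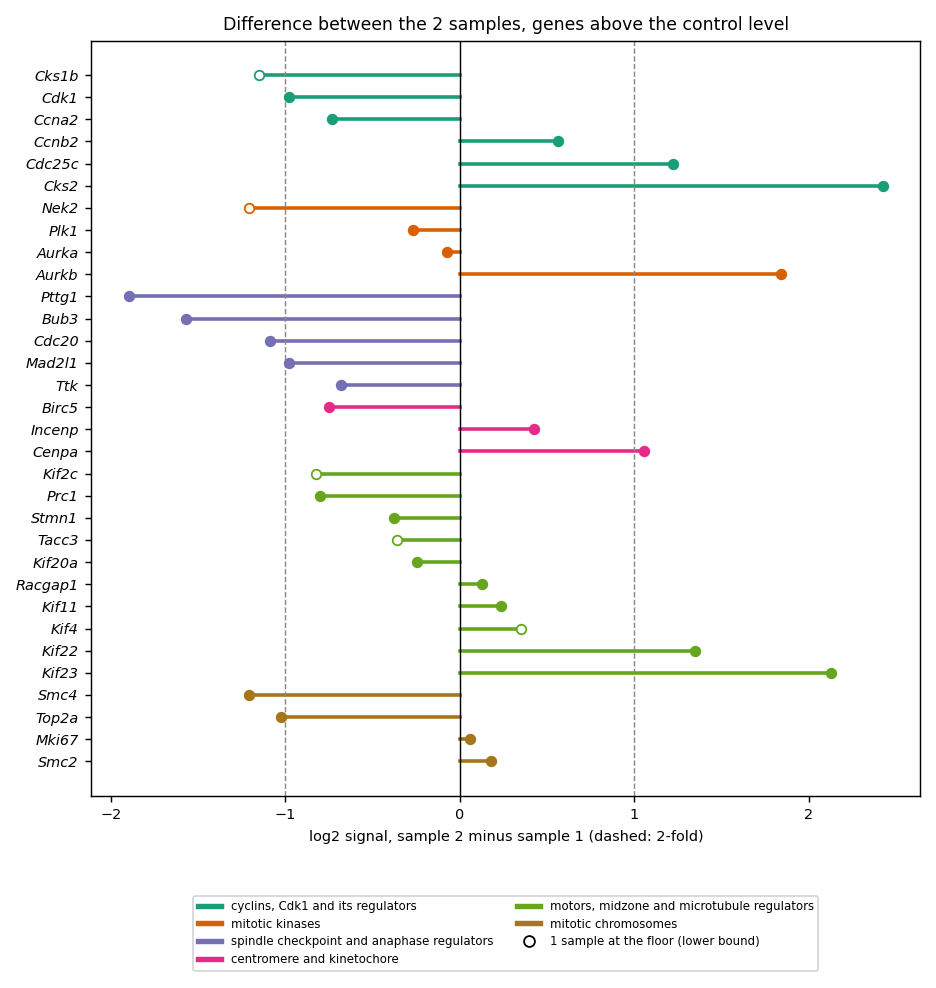
Log2 signal of sample 2 minus sample 1 for the 32 members above the control level, coloured by role, with dashed lines at 2-fold; open circles have 1 sample at the floor. The 5 checkpoint and anaphase genes all lie left of 0, and Cks2 and Kif23 lie farthest to the right.

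The members in the role of spindle checkpoint and anaphase onset that passed the control level were all higher in sample 1. Of 6 members of this role on the array, 5 passed, 5 of 5 were higher in sample 1 and 3 by 2-fold or more. Their median difference was -1.09 (2.13-fold). Of all 4707 named genes above the control level, 47.1% were higher in sample 1, and 11.0% by 2-fold or more. The role is 1 of 6 and its direction was not tested. Genes of the anaphase-promoting complex outside the members, given below, lay on both sides. Pttg1, which encodes securin, the inhibitor of separase, gave 129 (sample 1) and 34.6 (sample 2), a 3.72-fold difference (mean log2 signal 6.06 ± 1.34, SD, n = 2). This probe set carries the suffix _s_at. The other probe set of Pttg1 had 3.95 and 1.6, under the control level in both samples. Bub3, a kinetochore protein that takes part in the checkpoint complex, had 197 and 66.2, 2.97-fold apart (6.83 ± 1.11, SD, n = 2). The other probe set of Bub3 had 1.1 and 14.55, the other way, with both signals under the floor and that of sample 1 under the control level. Cdc20, the activator of the anaphase-promoting complex that the checkpoint restrains, had 315 and 148, 2.13-fold apart (7.76 ± 0.77, SD, n = 2). By the probe sets used, sample 1 was the higher by 2-fold or more in these 3 genes.

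Mad2l1 encodes the checkpoint protein that binds Cdc20, and its signals were 165 and 83.6, 1.97-fold apart and so just under 2-fold. The checkpoint kinase gene Ttk had 56.1 and 35.0, 1.60-fold apart. The kinase gene Bub1 did not pass the control level. Its 3 probe sets had 2.15 in sample 1 and 28.2 in sample 2, 10.8 and 12.1, and 1.75 and 0.75. All 3 were under the control level in sample 1, so no direction can be given for Bub1.

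Cdk1 and cyclin A2 were higher in sample 1, and cyclin B2 and the phosphatase gene Cdc25c in sample 2. All 6 genes of this role on the array were above the control level, 3 higher in each sample, with a median difference of -0.08. Cdk1, the kinase that drives mitosis, had signals of 115 and 58.4, 1.97-fold apart (6.36 ± 0.69, SD, n = 2). Its partner Ccna2 had 94.8 and 57.2, 1.66-fold apart. Its other partner Ccnb2 had 145 and 214, 1.48-fold higher in sample 2. The catalytic subunit and its 2 measured cyclins therefore did not share a direction. Cdc25c, whose product removes the inhibitory phosphates of Cdk1, had 22.6 and 52.6, 2.33-fold higher in sample 2. The probe set used for Cdc25c carries the suffix _s_at. The other probe set of Cdc25c had 17.6 and 27.4, in the same direction but under 2-fold.

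The paralogues Cks1b and Cks2 went opposite ways. Both encode small proteins that bind cyclin-dependent kinases and help them to act on phosphorylated substrates. Cks2 gave 78.0 (sample 1) and 419 (sample 2), a 5.37-fold difference (7.50 ± 1.71, SD, n = 2), the largest difference of the 32 members. Cks1b had 44.4 and 14.4, at least 2.22-fold higher in sample 1. Each was measured by 1 probe set.

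Among the mitotic kinases, all 4 above the control level, only Aurkb was higher in sample 2 by the probe sets used. Aurkb encodes the kinase of the chromosomal passenger complex, which corrects faulty attachments and acts in cytokinesis, and had 31.3 and 112, 3.58-fold apart (5.89 ± 1.30, SD, n = 2). Aurka, its relative at the spindle poles, had 49.2 and 46.7, 1.05-fold apart. The 2 aurora kinases thus differed in how far their samples lay apart, without a test of that difference. Nek2, a kinase of centrosome separation, had 46.2 and 17.5, at least 2.31-fold higher in sample 1.

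Plk1, a kinase of mitotic entry, spindle formation and cytokinesis, had 139 and 116, 1.20-fold higher in sample 1, by a probe set of a gene family type (suffix _f_at). A further probe set had 42.8 and 45.3, the other way, and the third had 20.3 and 5.28. Which sample was higher for Plk1 therefore depended on the probe set.

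The passenger complex subunits did not follow Aurkb as a group. Incenp, the scaffold of the complex, had 24.3 and 32.6, 1.34-fold higher in sample 2, and 12.9 and 25.0 by its other probe set. Birc5, which encodes survivin, had 35.1 and 20.8, 1.68-fold higher in sample 1. The fourth subunit gene, Cdca8, encodes borealin and is not one of the 39. It had 75.9 and 34.6, 2.19-fold higher in sample 1. Of these 4 genes, 2 were higher in each sample.

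Of the centromere genes, Cenpa, which encodes the histone variant that marks centromeres, had 83.1 and 173, 2.08-fold higher in sample 2 (6.91 ± 0.75, SD, n = 2). Cenpc1, the gene of a protein of the inner kinetochore, had 30.0 and 8.25, under the control level in sample 2. Cenpe, the gene of a kinetochore motor, had 2.05 and 21.2 by one probe set and 1.1 and 1.6 by the other, under the control level in sample 1. The role as a whole, centromere genes with Incenp and Birc5, had 3 of 5 genes above the control level, the lowest count of the 6 roles by share.

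The 10 genes of motors, the midzone and microtubule regulation were all above the control level, 5 higher in each sample, with a median difference of -0.06. The pair with differences of 2-fold or more were both kinesin genes and both higher in sample 2. Kif23, a kinesin of the central spindle, had 63.3 and 277, 4.38-fold apart (7.05 ± 1.51, SD, n = 2). Racgap1, whose product forms the centralspindlin complex with Kif23, had 30.2 and 33.1, 1.09-fold apart. The 2 partners of this complex thus had a large and a small difference. Kif22, a chromosome-arm kinesin, had 232 and 592, 2.55-fold apart (8.53 ± 0.96, SD, n = 2). Its only probe set carries the suffix _r_at, which marks probes chosen under relaxed design rules.

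The remaining motors and microtubule genes lay within 2-fold with the floor of 20, which for Kif4, Kif2c and Tacc3 leaves only a lower bound. Without the floor the log2 difference of Tacc3 was -1.24, past 2-fold towards sample 1. Kif11, the motor that pushes spindle poles apart, had 40.7 and 48.0, and the chromokinesin gene Kif4 17.2 and 25.6, at least 1.28-fold higher in sample 2. Kif2c, a kinesin that takes microtubules apart at centromeres, had 35.4 and 19.6, at least 1.77-fold higher in sample 1. Kif20a, a kinesin of cytokinesis, had 246 and 207 by a probe set with the suffix _f_at and 24.1 and 23.4 by its other one. In both probe sets of Kif20a the samples lay close together.

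Prc1, which bundles the microtubules of the central spindle, had 62.6 and 35.9, 1.74-fold higher in sample 1. Tacc3, which stabilises spindle microtubules, had 25.6 and 10.8, at least 1.28-fold higher in sample 1. Stmn1, which encodes the microtubule destabiliser stathmin, had 380 and 293, 1.30-fold higher in sample 1, while its other probe set gave 10.2 and 2.25, under the control level in both samples.

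For the mitotic chromosomes, Smc4 and Top2a were higher in sample 1, and Smc2 and Mki67 differed little. Smc4, a core subunit of condensin, had 277 and 120, 2.31-fold apart (7.51 ± 0.86, SD, n = 2). Smc2, with which it pairs in condensin, had 27.0 and 30.5, 1.13-fold higher in sample 2. Top2a, the topoisomerase that untangles sister chromatids, had 62.6 and 30.8, 2.03-fold apart and so just past 2-fold. Mki67, the gene of the proliferation antigen Ki-67, had 36.4 and 37.8, 1.04-fold apart, and 18.4 and 23.8 by its other probe set. This gene, widely used to mark dividing cells, thus gave nearly equal signals in the 2 samples.

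Of 10 members with several probe sets, Cdc25c, Incenp, Kif20a, Mki67 and Plk1 had more than 1 above the control level in both samples. In Cdc25c, Incenp, Kif20a and Mki67 these went the same way, and in Plk1 they did not. The differences of Pttg1, Bub3 and Stmn1 each rested on 1 probe set, because the other was at the floor in both samples.

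Other genes of mitosis, 56 on the array from a list without any of the 39, were split evenly. Of these, 40 (71.4%) passed the control level in both, 19 were higher in sample 1 and 19 in sample 2, and 2 lay at the floor. Their median difference was 0. By 2-fold or more 5 were higher in sample 1 (12.5%) and 4 in sample 2 (10.0%), against 11.0% and 9.62% of all named genes above the control level. The 3 most different towards sample 1 with both signals above the floor were the kinetochore gene Zwint (293 and 117), the anaphase-promoting complex gene Anapc5 (647 and 285) and Cdca8. Towards sample 2 they were the nuclear lamina gene Lmnb1 (23.4 and 52.6), Cdca3, whose product promotes the destruction of the Cdk1 inhibitor Wee1 (37.5 and 84.2), and the phosphatase subunit gene Ppp2r1a (135 and 279). Cdc16, also of the anaphase-promoting complex, had 49.3 in sample 1 and 78.5 in sample 2, the other way from Anapc5.

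Genes of DNA replication differed in their counts from the mitotic genes. Of 43 on the array 35 (81.4%) were above the control level. Of these 24 were higher in sample 1 and 7 in sample 2, with a median difference of -0.52 (1.44-fold). By 2-fold or more the counts were 11 (31.4%) and 0, against 11.0% and 9.62% of all named genes above the control level. The mitotic members had 7 and 6 by 2-fold or more. Among the replication genes the helicase subunit gene Mcm7 had 153 and 27.7. The list of G1 cyclins, their kinases and inhibitors, which also holds genes of the Rb and E2F families, had a median of 0.18, with 4 of 12 higher in sample 1 and 8 in sample 2. The difference between these lists and the members has no test in this design.

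**Figure D4:**
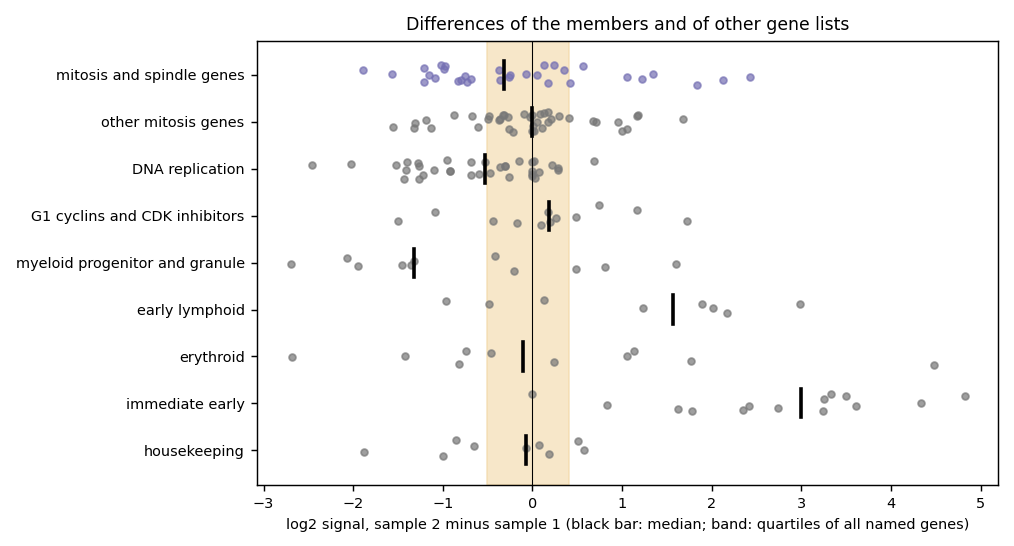
Log2 signal of sample 2 minus sample 1 for each gene above the control level, for the mitosis and spindle members and 8 other lists; black bars are list medians and the band spans the quartiles of all 4707 named genes above the control level. The members spread over both sides with a median of -0.31, the replication genes lie mostly left of 0 with a median of -0.52, and immediate early genes have a median of 2.99.

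Cell type markers and technical values also differed between the samples. Of the genes for stem and early progenitor cells 15 of 19 passed the control level, with Kit at 25.8 and 19.4 and Cd34 at 43.9 and 57.2, and 6 were higher in sample 1 and 8 in sample 2, with a median of 0.18. Their summed signals were 2261 and 5041, or 1147 and 1117 without the transcription factor gene Lyl1 (695 and 2224) and the endoglin gene Eng (419 and 1700). Of the T cell antigens, Cd3e (5.75 and 4.80), Cd4 (6.95 and 9.80) and Cd8a (3.45 and 2.80) did not pass it, while Lat (63.6 and 51.8), Zap70 (29.5 and 15.6), Thy1 (14.2 and 42.5), Prf1 (16.8 and 32.3) and Gzmb (24.7 and 25.3) of the T and NK cell list did. Myeloid progenitor and granule genes (11 of 12 above, summed signal 3258 and 1315) had a median of -1.32, with 8 of 11 higher in sample 1. Mpo made up the largest part of this sum in sample 1, with 1862, and had 288 in sample 2. Early lymphoid genes (8 of 10, 1404 and 2160) had a median of 1.56 with 6 of 8 higher in sample 2, and immediate early genes (14 of 17, 834 and 6750) a median of 2.99 with 13 of 14. Erythroid genes (10 of 14, 1629 and 1917) had 5 higher in each sample. Large differences lay on both sides, such as Hba-a1 (30.1 and 670) and Car1 (488 and 75.9). Summed signals were 581 and 1227 for mature neutrophil genes (7 of 10 above the control level), 646 and 374 for monocyte and macrophage genes (9 of 11) and 394 and 529 for stromal and endothelial genes (7 of 12). They were 371 and 409 for B cell genes (6 of 10), 191 and 231 for T and NK cell genes (5 of 14) and 415 and 300.4 for megakaryocyte genes (2 of 6). The ratio of the 3′ to the 5′ probe set was 10.4 in sample 1 and 22.2 in sample 2 for beta-actin, and 11.2 and 19.0 for Gapdh. Probe sets of the spiked controls were higher in sample 2 by 2.63 to 4.12 times for BioB, 1.52 to 1.94 for Cre, 1.17 to 1.35 for BioC and 1.13 to 1.25 for BioD. The part of cell composition, RNA quality and hybridisation in the differences of the mitotic genes was not tested.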

How the data were processed

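RNA was measured on Affymetrix mouse arrays in 2 samples of 1 group, after 2 rounds of amplification per the labels' protocols. The deposited values are signal intensity values on a linear scale, 1 for each of 12488 probe sets, with means of 53.9 in both columns and medians of 15.9 and 14.4. Their summarising software is not named in those labels, and the number of arrays limits the precision. All columns were used. Both arrays were quantile-normalized, signals under 20 (57.6% in each sample) were set to 20, and log2 was taken (numpy 2.4.6, pandas 2.3.3, scipy 1.17.1). A gene passed the control level where at least 1 probe set exceeded it in each sample, and was represented by whichever probe set had the highest mean log2. The 66 control probe sets and those naming several genes or none were left out. Gene names came from the platform annotation of GEO. The annotation names no genome build, so only promoter windows carry coordinates. The script was tested on simulated data. Named genes are every member on the array, plus the 3 most different of the other mitosis genes in each direction. Cell type markers, Mcm7, Cdc16 and the kinesin and tubulin genes of the closing section lie outside this rule and were chosen after their values were seen. Members and lists were chosen with earlier results of these data known. The alternatives were 9 other settings and each sample alone.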

Additional observations from a re-analysis of the deposited data

How the results depend on the processing

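Under 9 other settings the median difference of the members kept its sign, from -0.39 (deposited scaling) to -0.17 (mean over a gene's probe sets). All 13 members 2-fold or more apart kept their direction in every setting that gave them a value, and Cks2, Aurkb, Kif22, Kif23 and Smc4 also stayed past 2-fold in each. Most settings could not have reversed a direction. For a gene with a single probe set only the deposited scaling and median-centring could, because filters, floor and offset keep the order of its signals. Of the 19 members under 2-fold, Plk1 and Mki67 changed sign. The count of members above the control level was 30 to 32 under other scalings, probe set rules and control levels, 27 with both signals at 20 or more, and 33 and 34 in a single sample. With an offset of 32 in place of the floor, which shrinks low signals, 3 members were 2-fold or more higher in sample 1 and 4 in sample 2. Of all genes past 2-fold, 53.4% were higher in sample 1, and 60.5% with the deposited scaling. For members this share was 53.8%, against 64.3% with the deposited scaling and 42.9% with the offset. Small list medians changed sign and their cause was not tested: erythroid to 0.0064 (mean over probe sets) and 0.24 (no suffix), megakaryocyte to -0.069 (deposited), -0.096 (offset) and -0.096 (mean over probe sets), B cell to -0.026 (deposited), T and NK cell to -0.092 (deposited) and -0.13 (both at 20 or more), and housekeeping to 0.034 (median-centring). No paired analysis was possible because there is only 1 group.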

Other observations

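Kinesin and tubulin genes were looked at after values were seen, and no test was made of either group. All 6 members named as kinesins, Kif11, Kif20a, Kif22, Kif23, Kif2c and Kif4, passed the control level in each sample. The kinetochore motor gene Cenpe, a member without such a name, had 2.05 in sample 1 and 21.2 in sample 2 and did not pass in sample 1. Of the 15 other genes named as kinesins, 2 passed in both samples (13.3%, against 57.0% of all named genes). They were Kif2a at 25.2 in sample 1 and 16.1 in sample 2 and Kif5a at 15.2 and 10.2. The transport motor genes Kif1a (3.65 and 2.70), Kif3a (13.6 and 7.05), Kif5b (11.6 and 17.5) and Kif5c (5.15 and 4.90) did not. Among the 15 is also Kifc1, a spindle motor that is not a member, which had 11.5 and 50.6, just under the control level in sample 1.

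Of 12 tubulin genes 11 were above the control level (91.7%, against 57.0%), 7 higher in sample 1 and 4 in sample 2 (47.1% and 43.3% of all genes above it), with a median log2 difference of -0.12. Tubb5 had 463 and 527 and Tuba1c 862 and 765, both by probe sets with the suffix _f_at. Tubb4a had 64.0 and 15.6, at least 3.20-fold higher in sample 1, and the gamma-tubulin gene Tubg1, of the centrosome, had 58.6 and 18.4, at least 2.93-fold higher in sample 1.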
